A study of Rattus norvegicus with 1 sample.

Results

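The tag-rich windows of the control DNA were the 1 kb windows of rat chromosomes 1 to 20 and X that held 32 or more distinct tags. There were 1119 of them among 2718826 windows (Poisson 95% interval of the count 1054 to 1187), which is 0.0412% of the total. A tag is a 50 bp read aligned to the rat genome build rn4, and its 5′ end gave its position. Tags that shared chromosome, 5′ end and strand were counted once as a distinct tag, and those beyond the first are called repeated. The windows lie end to end from position 0 of each chromosome. The members were chosen by their number of distinct tags in this library, so this number is given below as a description only.

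The DNA was that of PCCl3, an established cell line of rat thyroid, grown with thyrotropin (TSH), insulin, somatostatin, transferrin, hydrocortisone and glycyl-histidyl-lysine. The protocol in the labels fixes cells with 1% formaldehyde and sonicates the chromatin, and no antibody was used. The labels call the group input DNA. The study's methods name non-IP DNA, taken from sheared chromatin just ahead of the immunoprecipitation, as the control that was sequenced and used to call peaks. They list an input taken ahead of sonication as another control, and say that it served for normalization in the ChIP-Seq work. The library is taken here to be the non-IP DNA, although the label would also go with that input. Fragments near 200 bp were amplified by 18 PCR cycles. There was 1 library with 6714002 tags, so no value has an error between replicates and no test between groups was possible. Intervals cover counting error only, because reads amplified by PCR without molecular identifiers are not independent molecules. Genomic DNA shows no expression, and the thyroid identity of the cells could not be checked against marker genes.

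In chromatin immunoprecipitation followed by sequencing, control DNA gives the background against which a transcription factor such as Pax8 is mapped. Places where tags pile up without an antibody matter because a peak caller weighs the immunoprecipitated tags against the control tags at the same place. Each tag is a single read from 1 end of a fragment, inwards from the 5′ end of either strand, and its opposite end was not read. Where several fragments cover a place, minus-strand tags of other fragments therefore tend to lie about 1 fragment length downstream of plus-strand tags. Genes, repeats and base composition of rn4 at the windows were not analysed here, and no sequence is printed.

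Most members lay close to the threshold. The median window held 36 distinct tags (quartiles 33 and 41), and 521 members, or 46.6%, held 32 to 35. Another 281 held 36 to 39, 202 held 40 to 47 and 75 held 48 to 63. The remaining 40 windows, called the high windows below, held 64 or more, and 14 of these held at least 100, up to 456. Just outside the threshold, 198 windows had 31 distinct tags, and just inside it 174 had 32. The median repeated share was 18.4% in the former and 17.9% in the latter, and the shortest stretch holding 90% of the tags was 704 bp and 723 bp. The members were read mainly against the 17452 windows of 16 to 31 distinct tags.

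The members were spread over all 21 chromosomes, but unevenly. Chromosome 10 held 295 of them, or 26.4%, at 266 per 100 Mb (Poisson 95% interval 237 to 299), although it makes up 4.07% of the windows. Chromosome 1 followed with 155. Together these chromosomes held 450 members, or 40.2%, in 13.9% of the windows. Per 100 Mb, chromosome 19 was next to chromosome 10 at 92.9 (69.97 to 121), followed by chromosome 12 at 74.8 (52.1 to 104) and chromosome 11 at 65.0 (49.2 to 84.2). The intervals of these 3 overlapped. At the other end, chromosomes 15, 17, 18 and X each held fewer than 10 members, and X was lowest at 5.60 per 100 Mb (2.56 to 10.6).

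Tag density also differed between whole chromosomes. Chromosome 10 had a mean of 3.83 distinct tags per window, chromosome 12 had 3.29 and X had 0.720, against 2.17 over all windows. The order of the chromosomes was not the same by density and by members. Chromosome 12 was denser than chromosome 19, at 2.97, but held fewer members per 100 Mb. Chromosome 3 had a mean of 2.41 with 25.1 members per 100 Mb (18.2 to 33.9), where chromosome 16 had 2.17 with 46.5 (33.5 to 62.9). In both pairs the intervals of the members overlapped, so these differences in order lie within counting error. Windows of 16 to 31 tags were unevenly spread as well, since chromosome 10 held 16.6% of them and X 0.441%. For every 100 such windows there were 10.2 members on chromosome 10, 11.7 on X, 6.64 on chromosome 1 and 2.57 on chromosome 17. The value for X rests on 9 members and 77 windows. X was thus poor in both kinds of window. The part of chromosome-wide density in the number of members was not tested.

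**Figure D1:**
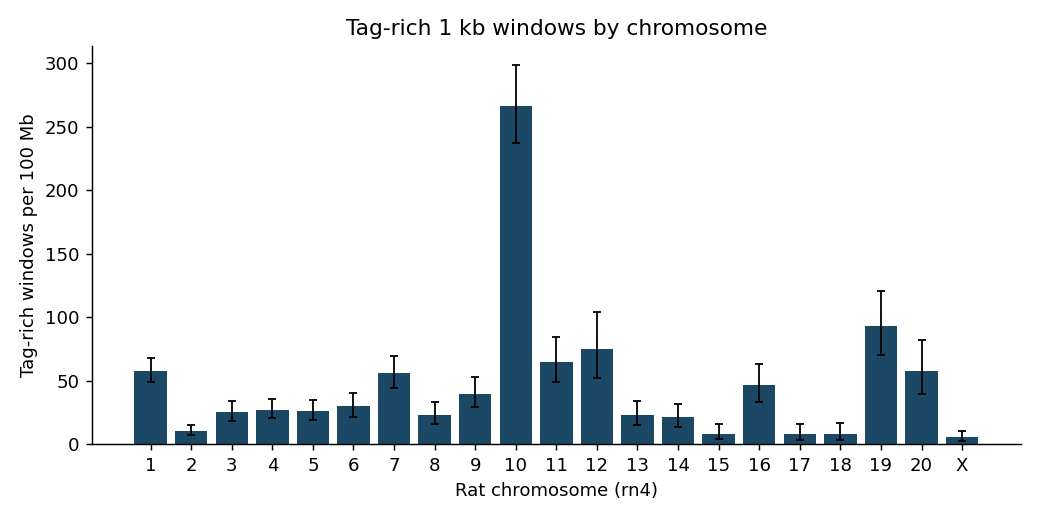
Bars give the number of tag-rich 1 kb windows per 100 Mb of each rat chromosome (rn4), and lines give Poisson 95% intervals. Chromosome 10 stands at 266 per 100 Mb, while chromosome X stands at 5.60.

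Chromosome 10 had many members but 1 of the 40 high windows, where it makes up 4.07% of all windows. The single high window is thus low beside the number of its members, and not clearly low beside its length. Of its 295 members 1 was high, with 72 distinct tags, whereas 39 of the 824 members elsewhere were. The median number of distinct tags was 36 in both sets. The windows around its members were denser, with a median flanking level of 7.95 distinct tags per kb against 4.60 elsewhere (mean of the 20 windows at 2 to 11 kb on either side). Windows of 16 to 31 tags showed the same order, at 8.05 on chromosome 10 and 5.40 elsewhere. On chromosome 10, 16 members (5.42%) had 90% of their tags within 500 bp, and 92 (11.2%) on the other chromosomes, where windows of 16 to 31 tags had 13.9% and 13.8%. The difference between the chromosomes was not tested. The median repeated share was 18.6% and 18.9%.

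Members seldom formed runs, apart from the high windows. They fell into 1064 runs of directly adjacent windows, of which 1015 were single windows, 44 were pairs, 4 had 3 windows and 1 had 4. A total of 104 members (9.29%, Clopper-Pearson 95% interval 7.66% to 11.1%) touched another member, where 2.89% of the windows of 16 to 31 tags touched a member and 0.0412% of all windows were members. Of the 40 high windows 19 (47.5%, 31.5% to 63.9%) touched another member, against 85 of the 1079 members with 32 to 63 tags (7.88%, 6.34% to 9.65%). The window beside a member held a median of 9 distinct tags, and 27.7% of these neighbours held 16 or more. Among the 2238 neighbours 68 held none. Most neighbours thus stayed below 16 tags, although their median was above the levels at 2 kb and beyond that are given below.

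The longest run lay on chromosome 4 and consisted of chr4:75900001-75901000 to chr4:75903001-75904000. Its windows held 41, 456, 43 and 99 distinct tags in order, and the windows at either end of the run held 0. The second window is the fullest of chromosomes 1 to 20 and X, and 22.8% of the 2000 positions and strands in it were occupied. Strands were unequal in its neighbours. The first window had 12 plus-strand and 29 minus-strand tags, the third had 10 and 33, the fourth had 61 and 38, while the fullest had 236 and 220. The repeated share was 49.4% and 48.4% in the first pair of windows and 18.9% in both others.

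The next longest runs had 3 windows each. That of chr4:5743001-5744000 held 134, 99 and 64 distinct tags, and plus-strand tags were in the majority in every window, at 61.2%, 68.7% and 70.3%. The Clopper-Pearson 95% intervals of all 3 shares lay above 50%, with the lowest bound at 52.4%. That of chr13:86957001-86958000 held 111, 44 and 39, with plus shares of 45.0%, 38.6% and 41.0%, and their intervals all included 50%. The other runs of 3 windows started at chr4:179962001-179963000, with 39, 65 and 60 distinct tags, and at chr10:106641001-106642000, with 35, 53 and 32. Of these 5 runs, 3 were on chromosome 4, which held 51 of the 1119 members. The runs were picked for their length, so this share is a description.

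Beyond adjacency, some members came in loose groups, while most had no other member within 10 kb. The nearest other member lay at a median distance of 110 kb (quartiles 20.5 and 534 kb). It lay within 10 kb for 217 members (19.4%, 17.1% to 21.8%) and within 100 kb for 546 (48.8%, 45.8% to 51.8%). These distances were not set against those of other windows. Spacing followed the number of members on a chromosome. The median was 32 kb on chromosome 10, 144 kb on chromosome 1 and 196 kb on the other 19 chromosomes. The most isolated member was 78578 kb from any other. When members closer than 10 kb were joined, 992 pile-ups remained, 902 of them with a single member, 68 with 2 and 15 with 3. A further 7 had 4 or more.

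These 7 groups were of different kinds. The largest, on chromosome 10 from 109777001 to 109806000, had 7 members with 32 to 72 distinct tags, a joint repeated share of 23.5% and broad windows, with stretches of 688 to 876 bp. A group of 5 lay nearby, from 110004001 to 110025000, with 33 to 45 tags and a repeated share of 17.1%. On chromosome 13, from 86955001 to 86963000, 6 members within 8 kb held 37 to 111 tags, with a share of 20.7%. The groups on chromosomes 1 and 19 had 4 members each, with shares of 19.7% and 15.1%. Chromosome 4 held the other pair of groups, of 6 members from 75895001 to 75909000 and 4 from 75830001 to 75840000. They differed from the rest in their repeated shares of 43.4% and 39.4%. Their top windows held 456 and 197 distinct tags.

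The level of tags fell steeply on leaving a member. The median over members was 10.5 distinct tags at 1 kb, the mean of both sides being taken, 5 at 2 kb, 4.5 at 10 kb and 4 at 100 kb. Around windows of 16 to 31 tags it was 8 at 1 kb, 6 at 2 kb, 5 at 10 kb and 4 at 100 kb. At these distances from 2 kb on, the medians of both kinds of window lay within 1 tag of each other and above the genome-wide mean of 2.17. The flanking level had a median of 5.40 per kb around members (quartiles 3.45 and 8.65) and 5.75 around the others (3.75 and 8.30). The lowest and the highest levels were both more frequent around members. A level under 2 was found for 77 members (6.88%, 5.47% to 8.53%), where 3.84% of the windows of 16 to 31 tags had one. A level of 16 or more was found for 28 members (2.50%), against 0.940% of the windows of 16 to 31 tags.

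**Figure D2:**
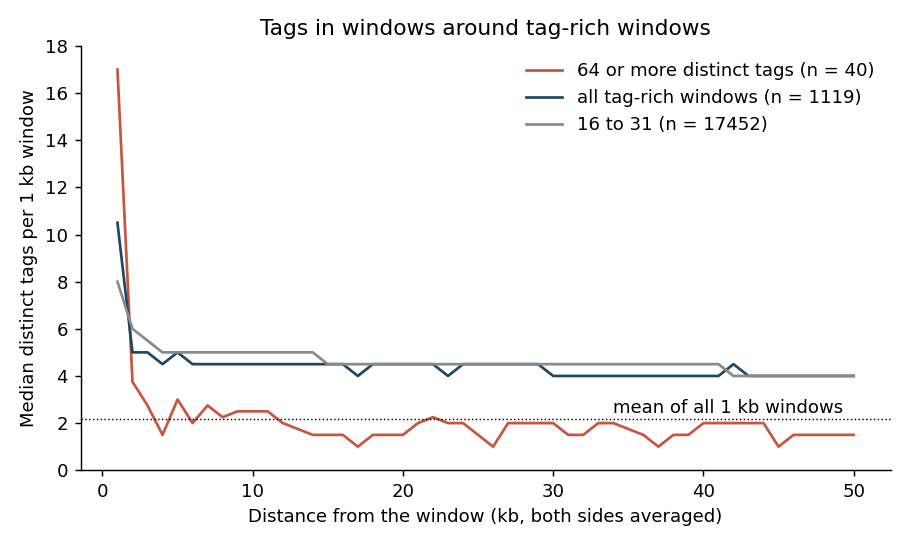
Lines give the median number of distinct tags per 1 kb window at 1 to 50 kb from a tag-rich window, from a high window with 64 or more tags, or from a window with 16 to 31 tags. The dotted line is the mean of all 1 kb windows, 2.17. Beyond 2 kb the line of all members lies close to that of windows with 16 to 31 tags, and the line of the 40 high windows lies lowest.

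The surroundings of high windows varied widely. Their median level was 17 distinct tags at 1 kb, 3.75 at 2 kb, 2.5 at 10 kb and 1.5 at 20 kb, 50 kb and 100 kb. Their mean level was higher, at 17.5 at 2 kb, 2.35 at 50 kb and 2.84 at 100 kb. The flanking level was under the genome-wide mean in 12 of the 40 (30.0%, 16.6% to 46.5%), in 8.85% of all members and in 5.47% of the windows of 16 to 31 tags. Of the 40 high windows, 11 (27.5%, 14.6% to 43.9%) lay within 10 kb of a stretch of at least 10 windows without any tag, as did 60 of all members (5.36%, 4.12% to 6.85%) and 3.5% of the windows of 16 to 31 tags. By flanking level, high windows made up 5 of the 13 members with a level under 1 and 6 of the 64 with a level from 1 to 2. They made up 8 of the 429 with a level from 4 to 8 and 5 of the 28 with a level of 16 or more. The 5 at a level of 16 or more were chr13:86955001-86956000, chr13:86957001-86958000, chr13:86961001-86962000, chr4:75895001-75896000 and chr4:75903001-75904000. They belong to 2 groups, each of 6 members, and other members of the same group are among the windows from which their flanking level was computed. The low numbers make all these shares imprecise.

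The ratio of a window to its flanks uses the number that chose it, and it is given as a description. The median was 7.11 in members and 3.39 in windows of 16 to 31 tags. A ratio of 5 or more was found in 769 members (68.7%), and 28.4% of the windows of 16 to 31 tags reached it. The highest ratios were at the edge of empty sequence. The window chr10:63600001-63601000 held 38 distinct tags and its flanks held none, so no ratio could be given. The window chr13:30744001-30745000 held 115 and its flanks 0.05 per kb, and chr2:156716001-156717000 held 245 and its flanks 0.25. These windows lay 1 or 2 kb from at least 10 windows without tags. The lowest ratios, 1.59, 1.66 and 1.75, belonged to chr4:75830001-75831000, chr13:86962001-86963000 and chr13:86959001-86960000, all inside the groups described above.

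Plus and minus strands were balanced over the members as a whole. Plus-strand tags made up 50.08% of the 44777 distinct tags in them (Clopper-Pearson 95% interval 49.6% to 50.5%), against 50.2% in windows of 16 to 31 tags (50.03% to 50.4%). Between members the plus share had an SD of 8.04 percentage points. Binomial counting alone gives 8.16 at these numbers of tags. In windows of 16 to 31 tags the SD was 11.6 and the binomial value 11.3. Over all members, strand shares thus varied no more than counting gives.

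In some sets of members strand shares varied more. The plus shares of the high windows had an SD of 9.90 percentage points, where counting gives 5.28, and ran from 25.4% to 70.3%. In narrow members of 32 to 63 tags the SD was 9.97 and the counting value 8.23, and in members with a repeated share of 30% or more they were 11.6 and 7.57. In the high windows the pooled share was 51.3% (49.8% to 52.8%), so that excesses of either strand nearly cancelled. A share under 35% or over 65% was found in 5 of the 40 and in 67 of all 1119 members (5.99%, 4.67% to 7.54%), 34 with more plus and 33 with more minus tags. The same rule took 17.5% of the windows of 16 to 31 tags, in which counting error is larger. The most uneven member was chr4:75830001-75831000, with 29 plus-strand and 4 minus-strand tags. The next lay at chromosome ends. The last window of chromosome 4 with tags, chr4:187125001-187126000, had 7 plus and 28 minus tags, and the first window of chromosome 15, chr15:1-1000, had 35 plus and 9 minus tags. In both, the strand in excess was the one that reads away from the chromosome end.

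The width of the pile-up inside the window was measured by the spread of the 5′ ends. Even placement over 1000 bp gives an SD of 289 bp. The median SD was 252 bp in members and 247 bp in windows of 16 to 31 tags. The shortest stretch with 90% of the distinct tags had a median of 735 bp in members (quartiles 625 and 810) and 698 bp in the others (578 and 804). This stretch becomes longer with more tags when the spread is alike. It was 500 bp or less in 108 members (9.65%, 7.98% to 11.5%), and in 13.8% of the windows of 16 to 31 tags. Most members were thus filled over much of their length, and narrow ones were not more common than among windows with fewer tags.

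Narrow pile-ups were common among high windows. Of the 40 high windows 19 (47.5%, 31.5% to 63.9%) had 90% of their tags within 500 bp, against 89 of the 1079 members with 32 to 63 tags (8.25%, 6.68% to 10.1%). The median SD was 178 bp and 253 bp in these sets. The tightest class stood out most. A stretch of 200 bp or less was found in 21 members (1.88%), 8 of them high, and in 39 of the windows of 16 to 31 tags (0.223%). The median repeated share was 35.5% in these 21 members and 27.3% in those 39 windows, where members with stretches over 800 bp had 18.2%.

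**Figure D3:**
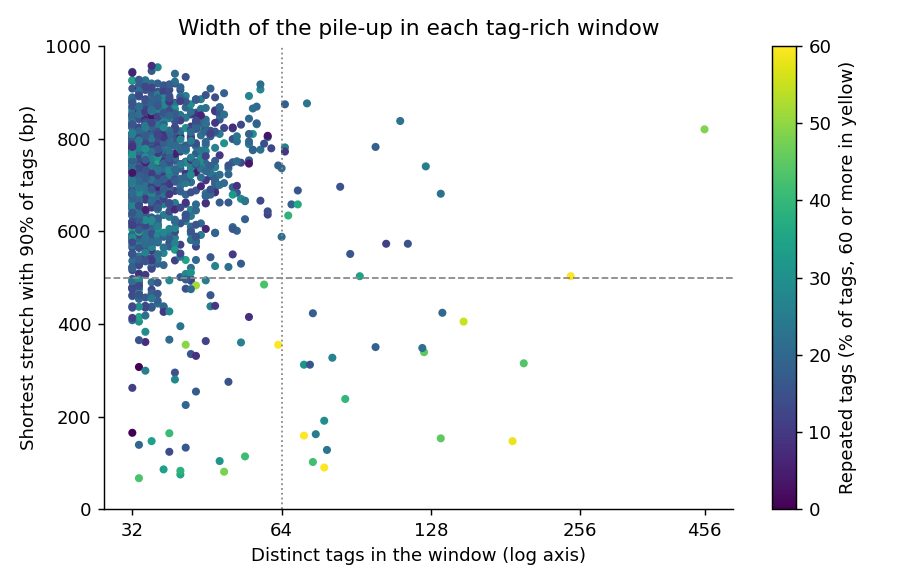
Each point is 1 of the 1119 tag-rich windows, with its distinct tags on a log axis and the shortest stretch with 90% of them in bp. Colour gives the repeated share. The dashed line marks 500 bp, and the dotted line marks 64 distinct tags. Points left of 64 lie mostly between 600 and 900 bp, and 19 of the 40 on the right lie below 500 bp.

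The tightest members held 90% of their tags within less than 100 bp. In chr4:75830001-75831000 the 33 distinct tags had 90% of their 5′ ends within 67 bp, from 75830911 to 75830993 in all. The window chr1:191884001-191885000 had 40 distinct tags, 19 plus and 21 minus, with a stretch of 75 bp. The window chr1:205226001-205227000 had 49, 24 plus and 25 minus, with a stretch of 81 bp. In this last pair the median minus-strand end lay 51 bp and 43 bp downstream of the median plus-strand end. At the other extreme stood chr6:32054001-32055000 with 957 bp, chr16:20763001-20764000 with 954 bp and chr10:105954001-105955000 with 946 bp. The window of chromosome 16 held tags at both of its edges, and the windows beside it held 16 and 17.

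The distance from plus-strand to minus-strand ends differed between the high windows and windows with fewer tags. For every plus-strand tag, the minus-strand tags within 600 bp downstream were counted at each distance, and the counts were averaged over 11 bp. In windows of 16 to 31 tags, pairs were most frequent at 166 bp, where there were 0.205 per window, and 0.127 at 49 bp. In the pooled pairs of all members they were most frequent at 49 bp, with 1.14 per window, against 0.731 at 166 bp and 0.357 at 500 bp. At a distance of 49 bp both tags cover the same 50 bp of the genome, read from opposite ends. In the high windows alone there were 16.2 pairs at 49 bp, 5.45 at 166 bp and 3.01 at 500 bp. In members with 32 to 63 tags the values at 49 and 166 bp were nearly alike, at 0.585 and 0.556.

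**Figure D4:**
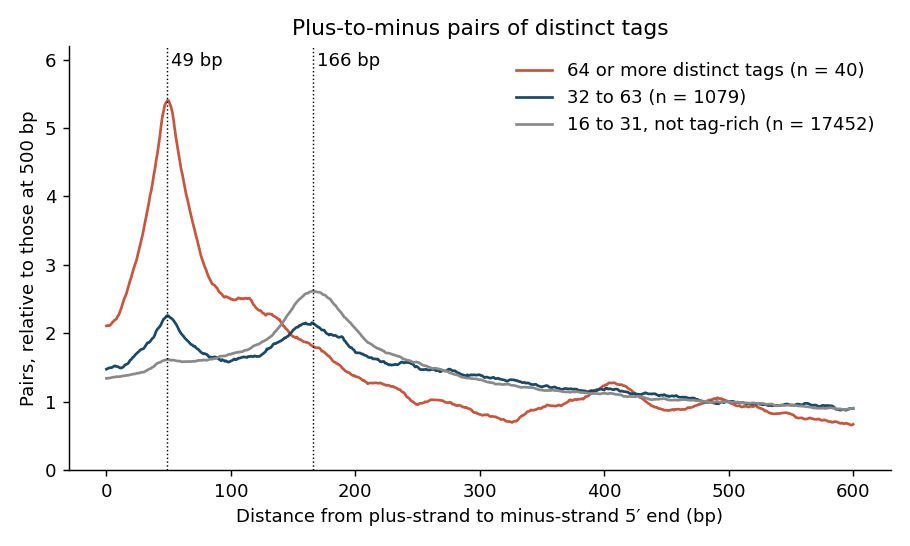
Lines give the number of plus-to-minus pairs of distinct tags at each distance from 0 to 600 bp, divided by the number at 500 bp and averaged over 11 bp, in high windows, in members with 32 to 63 tags and in windows with 16 to 31 tags. The high windows peak at 49 bp, the windows with 16 to 31 tags peak at 166 bp, and the members between them show both peaks.

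A limited number of members carried the pairs near 49 bp. The bands of 40 to 58 bp and of 157 to 175 bp, chosen after these curves had been seen, have the same width. In all members 29 windows gave at least 50% of the pairs in the shorter band. The 40 high windows gave 11674 of the 23234 pairs in the shorter band and 4171 of the 15340 in the longer one. Window by window, 305 members (27.3%) had more pairs in the shorter band, 730 had more in the longer one and 84 had as many. Of the high windows 33 had more in the shorter band and 7 in the longer. Of members with a stretch of 500 bp or less, 65 had more in the shorter band and 39 in the longer. The shortest stretches leave little room for pairs in the longer band, so width and strand distance are not separate measures there.

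Width divided the members of 32 to 63 tags in the same way. Part of this follows from the split itself, since tags within a short stretch can form few pairs in the longer band. Where the stretch was over 500 bp, in 990 windows, the highest value was at 165 bp, with 0.550 pairs at 166 bp and 0.434 at 49 bp. Where it was 500 bp or less, in 89 windows, the highest value was at 49 bp, with 2.26 pairs against 0.621 at 166 bp. The ratio of pairs in the shorter to the longer band was 0.795 and 3.38. It was 3.92 in narrow high windows and 2.13 in the other high windows. Windows of 16 to 31 tags had a ratio of 0.812 where narrow and 0.577 where broad, so in this class narrow windows too had their peak at 166 bp. The bulk of the members, broad and with 32 to 63 tags, therefore had the strand distance of the less filled windows.

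Repeated tags were then counted, which the choice of members had not used. In the pooled tags of each class the repeated share rose from 6.50% in windows of 1 to 3 distinct tags (Clopper-Pearson 95% interval 6.47% to 6.53%) to 10.2% in those of 4 to 7, 16.6% in those of 8 to 15 and 19.2% in those of 16 to 31 (19.1% to 19.3%). Members with 32 to 63 tags had 19.7% (19.4% to 20.1%), slightly above the class below. These intervals did not overlap, but they treat each tag as independent, which repeated tags are not. Among broad windows the shares were 19.2% (18.8% to 19.5%) in members with 32 to 63 tags and 19.1% (18.95% to 19.2%) in the class below, and these overlapped. In the high windows the share was 41.7% (40.6% to 42.8%). The median window told the same in part, with 18.2% in windows of 16 to 31 tags, 18.6% in members with 32 to 63 and 24.2% in high windows.

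**Figure D5:**
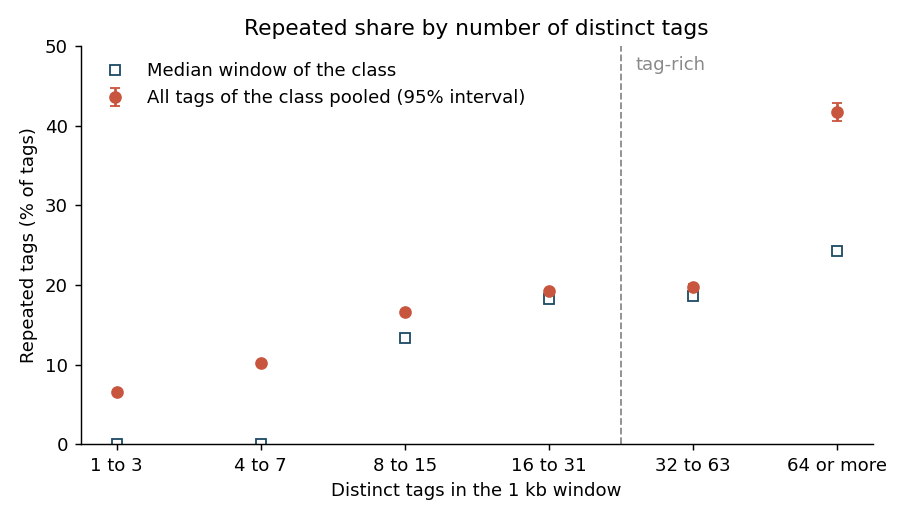
Filled circles give the share of repeated tags, in percent of all tags, pooled over the windows of each class of distinct tags, with Clopper-Pearson 95% intervals. Open squares give the median window, and the classes right of the dashed line are tag-rich. The pooled share was 19.2% in windows of 16 to 31 tags and 19.7% in those of 32 to 63, and 41.7% from 64 tags on.

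Few windows held the excess. The members had 13025 repeated tags in all, and 13.4% of these lay in 5 windows, 20.2% in 15 and 26.1% in 40. The pooled share of all members was 22.5% (22.2% to 22.9%), against the 19.7% of those with 32 to 63 tags. A repeated share of 30% or more was found in 66 members (5.898%, 4.59% to 7.44%), where 8.38% of the windows of 16 to 31 tags had one, and in 15 of the 40 high windows. Narrow members had a pooled share of 34.1% (33.02% to 35.1%) and broad ones 20.7% (20.3% to 21.01%). Their medians were closer, at 20.4% and 18.6%, and 25 of the 108 narrow members had a share of 30% or more. Among members with 32 to 63 tags the pooled share was 25.4% in narrow and 19.2% in broad windows. In windows of 16 to 31 tags it was 20.1% and 19.1%.

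Within a window the fullest position seldom held many tags. It held 2 tags in 302 members, 3 in 581, 4 or 5 in 208, 6 to 9 in 19 and at least 10 in 7. The member with the highest repeated share, chr13:108742001-108743000, had 372 tags at 78 distinct places, and its fullest position held 20. Its repeated share was 79.0% (74.5% to 83.1%), and 90% of its distinct tags lay within 90 bp. The next were chr2:156716001-156717000 with 70.2% (66.9% to 73.3%) and chrX:8363001-8364000 with 67.9% (60.8% to 74.3%). That window had 196 tags at 63 places and was the fullest of chromosome X. In all 3 windows pairs near 49 bp outnumbered those near 166 bp, by 499 to 1, 1618 to 284 and 290 to 16. In chr13:108742001-108743000 the stretch of 90 bp leaves almost no room for pairs near 166 bp, so 499 to 1 mostly restates its width.

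Other members had almost no repeats. The windows chr12:4414001-4415000 and chr10:21424001-21425000 had 33 and 32 tags, each at a place of its own, and chr17:92866001-92867000 had 44 tags at 43 places. They were picked as the members with the lowest repeated share, so these values are a description. Both windows without a repeated tag were narrow, with stretches of 307 and 165 bp, and narrow windows were thus not all rich in repeated tags.

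The 15 pile-ups with the most distinct tags in their top window differed widely among themselves. The fullest, chr4:75901001-75902000, held 456 distinct tags (Poisson 95% interval 415 to 500) over a broad stretch of 820 bp, with 1545 pairs near 49 bp and 1468 near 166 bp. Nearly equal numbers in both bands set it apart from the next. The window chr2:156716001-156717000 held 245 (215 to 278), a stretch of 503 bp, and 1 tag in the window to its right. The window chr4:75838001-75839000 held 197 (170 to 227) with a stretch of 315 bp, and chr4:75839001-75840000 beside it held 92.

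The window chr1:171993001-171994000 held 187 distinct tags (161 to 216), 90% of them within 147 bp, and the windows beside it held 1 and 3. Its pairs near 49 bp numbered 1163 and those near 166 bp 95, for which a stretch this short leaves little room. The window chr7:99315001-99316000 had a like shape, with 134 tags (112 to 159), a stretch of 153 bp, 0 and 5 tags beside it, and 513 pairs against 82. It had an excess of the minus strand, with 47 plus and 87 minus tags (plus share 27.0% to 43.8%). The window chr3:148551001-148552000 held 124 (103 to 148) with a stretch of 339 bp, and had 400 pairs near 49 bp and 17 near 166 bp. Its fullest position held 12 tags. In these 3 windows the repeated shares were 58.1%, 45.1% and 45.1%.

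Some of the fullest windows had no raised repeated share. The window chr6:22163001-22164000 held 104 distinct tags (85.0 to 126) with a share of 11.1% (6.05% to 18.2%). The window chr13:30744001-30745000 held 115 (94.9 to 138) with 15.4% (9.82% to 22.6%), and chr1:229841001-229842000 held 88 (70.6 to 108) with 16.2% (9.72% to 24.7%). Their stretches were 573, 573 and 551 bp. In the window of chromosome 6, 179 pairs lay near 49 bp and 99 near 166 bp, and the windows beside it held 0 and 6 tags. A high number of distinct tags was thus found with and without a raised repeated share.

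Between these lay the remaining named windows. The window chr14:28434001-28435000 held 149 (126 to 175), with a share of 55.3% and 1 tag on either side. The window chr14:56507001-56508000 held 135 (113 to 160), with 20.1%, and 42 plus against 93 minus tags. Its left neighbour held 75. The window chr4:5743001-5744000 held 134 with 22.5%, chr6:91380001-91381000 held 125 with 25.6%, chr6:93668001-93669000 held 123 with 22.2% and chr13:86957001-86958000 held 111 with 22.9%. The interval of the share was 49.7% to 60.7% in chr14:28434001-28435000, above the pooled share of windows with 16 to 31 tags, and the intervals of the other 5 windows included that share. Of the 15 top windows 4 were on chromosome 4 or chromosome 13 inside groups of at least 3 members within 10 kb of each other, and 1 other lay beside a second member.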

How the data were processed

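DNA of PCCl3 cells that had not been immunoprecipitated was sequenced as 1 library, which formed the single group, called input DNA in the labels. Per the paper's methods, the authors aligned 50 bp reads to rn4 with the MIRO pipeline, allowing 2 mismatches, and the deposited file lists a position and a strand for each tag, with no other value such as a score and no normalization. How reads with several equally good places were treated is not given in the sources used here, nor is the aligner's version. Repeated reads were present in the list. The list held 6714002 tags and 1 track line, which was dropped. Unplaced and mitochondrial sequence was left out of the windows.

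Tags were counted from the positions with Python 3.11.15, numpy 2.4.6, pandas 2.3.3 and scipy 1.17.1, and measures were tested on simulated data. The plus-to-minus distance covered 0 to 600 bp. Intervals are at the 95% level, Poisson for counts and Clopper-Pearson for shares. Without replicates no p-value was computed. Positions are 1-based.

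Windows were named by fixed rules: the 15 pile-ups with most distinct tags (members under 10 kb apart joined), the 3 longest runs, and the 3 extreme members by repeated share, strand share, stretch and ratio to flanks. Members and rules were chosen with earlier results of these data known. The alternatives were other thresholds, all tags, shifted windows, other limits and left-out windows or chromosomes.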

Additional observations from a re-analysis of the deposited data

Results flagged for a closer look

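Tag-rich windows were also found in sequence outside the 21 chromosomes. In unplaced sequence, 78 of 75737 windows of 1 kb (0.103%) held 32 or more distinct tags, against 0.0412% on the 21 chromosomes, and the fullest held 361. On the mitochondrial genome all 17 windows did, up to 1359. They stand out because the data lie outside the windows described above, and there was no other control library to set them against.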

How the results depend on the processing

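Leaving out the 40 windows of 64 or more distinct tags was chosen after seeing the data, and the other alternatives were fixed earlier. Shifting windows by 500 bp moved none of the main results by more than the counting interval or, for their number, by 1.5 times, but the share of members with a plus share under 35% or over 65% rose from 5.99% to 8.12%. The 1119 windows became 3402 with all tags counted toward the threshold, 4453 at a threshold of 24 and 115 at 48. The share of members beside a member, 9.29%, became 14.99%, 16.8% and 14.8% in that order, and 7.14% without the high windows. The median spacing of 110 kb became 33, 30 and 316 kb, and 184 kb without chromosome 10. The pooled plus share was 50.9% at 48. The share of members with 90% of tags within 500 bp, 9.65%, became 23.5% at 48, and 32.98% when 50% of tags within 250 bp was asked. The repeated share of 22.5% became 23.4%, 20.3% and 33.8%, 23.5% without chromosome 10 and 19.7% without the high windows. The median ratio to flanks, 7.11, became 5.21, 5.26 and 10.3, and 8.10 without chromosome 10. Higher thresholds keep fewer and fuller windows by construction. For the values without chromosome 10 the cause was not tested. The share outside the strand limits left its interval in 4 of 7 alternatives, and the share at 5 times the flanks or more in 5 of 7. The most frequent plus-to-minus distance was 49 or 50 bp in all 6 alternatives run for it. The depth, 3.18 distinct tags in the mean occupied window, limits what single windows outside the members can show. No paired analysis was possible because the series as given here has 1 library.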
